A study of Mus musculus with 6 samples.

Results

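Aminoacyl-tRNA synthetases are the enzymes that join each amino acid to its tRNA, and the expression of their genes was examined 48 h after silencing of Aldoa in mouse fibroblasts. The set was chosen by gene symbol and held 39 of the 18001 genes in the deposited expression table. It comprised 20 genes of the cytosolic synthetases, 3 genes of scaffold proteins that hold several of these enzymes in one complex, and 16 genes of the mitochondrial synthetases. All 39 were found under the symbols listed, and none was left out for a low level.

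The cells were NIH/3T3, an established line of mouse embryonic fibroblasts. In the siAldoa group (n = 3 libraries) they received pooled siRNAs against Aldoa, which encodes the glycolytic enzyme aldolase A. In the siCtrl group (n = 3 libraries) they received a non-targeting siRNA. Poly(A) RNA was sequenced, and the question put to the data was which genes changed when the enzyme was depleted. The replicates are described as biological replicates of 1 cell line and 1 siRNA pool, so effects of the individual siRNAs cannot be told apart from those of Aldoa.

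A synthetase activates its amino acid with ATP and transfers it to the matching tRNA, so that the ribosome receives the correct building block. The nuclear genome encodes separate enzymes for the cytosol and for the mitochondrial matrix, although the products of Kars and Gars serve both. In mammalian cells, 8 of the cytosolic synthetase genes used here (Eprs, Iars, Lars, Mars, Qars, Rars, Kars and Dars) and the scaffold genes Aimp1, Aimp2 and Eef1e1 encode the multisynthetase complex. Many cytosolic synthetase genes are also known targets of ATF4, the transcription factor of the amino acid response, which is made when uncharged tRNA or other stresses slow translation.

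The values were CPM, that is reads per gene divided by a library size that the authors adjusted between samples. The reads behind them were 3692341 to 3771129 per library, and 3 reads, the level below which a gene was taken as undetected, corresponded to 0.786 to 0.822 CPM. Aldoa stood at 522, 536 and 545 CPM in the siCtrl libraries and 62.9, 69.2 and 72.0 CPM in the siAldoa libraries, 12.7% of the control mean, so the labels matched the silenced gene. The 11 fibroblast markers in the table summed to 13370 to 13930 CPM in the siCtrl group and to 11070 to 11760 CPM in the siAldoa group. They did not move together: limma called 5 of the 11 lower and 4 higher, against 10.0% and 10.4% of all genes. Of 14 markers of epithelial, immune, endothelial, neuronal, muscle and fat cells, 10 were in the table, all under 10 CPM. Their sum was 17.8 to 19.7 CPM in the siCtrl group and 8.12 to 10.3 CPM in the siAldoa group, 1 of the 10 being at 0 in all siAldoa libraries. Both sums moved with the group, and their part in the results on synthetase genes was not tested. In both groups, replicates 1 and 2 were closer to each other (chi-square per degree of freedom 1.12 and 1.11 over 12698 and 12809 genes) than either was to replicate 3 (2.07 to 3.24), so the counts are also given without replicate 3 of both groups. CPM are relative to all RNA of a library, so a lower CPM is a lower share of that RNA. Neither the number of cells nor the RNA per cell can be read from them.

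The transcripts of most cytosolic synthetases were modestly lower after Aldoa silencing. With limma on log2(CPM + 1) and Benjamini-Hochberg adjustment over all 18001 genes, 14 of the 20 cytosolic genes fell at an adjusted p under 0.05. Qars was the 1 that rose, and 5 did not pass (Dars, Farsb, Iars, Kars and Sars). The median log2 fold change of the 20 genes was -0.23, against -0.0023 over all genes, and 19 of the 20 were below 0. Over all genes 10.0% of genes were called lower and 10.4% higher. These enzymes are well expressed, with siCtrl means of 78.4 to 597 CPM, and among all 2971 genes with a siCtrl mean between 80 and 600 CPM 31.1% were called lower and 16.6% higher, with a median of -0.05. The share of cytosolic genes called lower, 14 of 20, lay above that too. Without replicate 3 of both groups 9 of the 20 were called lower, in a comparison of 2 libraries with 2 in which 1014 genes passed in place of 3676. The count was 7 without replicate 1 of both groups, 9 without siCtrl replicate 1 alone and 3 without the mean-variance trend, while edgeR gave 14 and DESeq2 12.

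**Figure D1:**
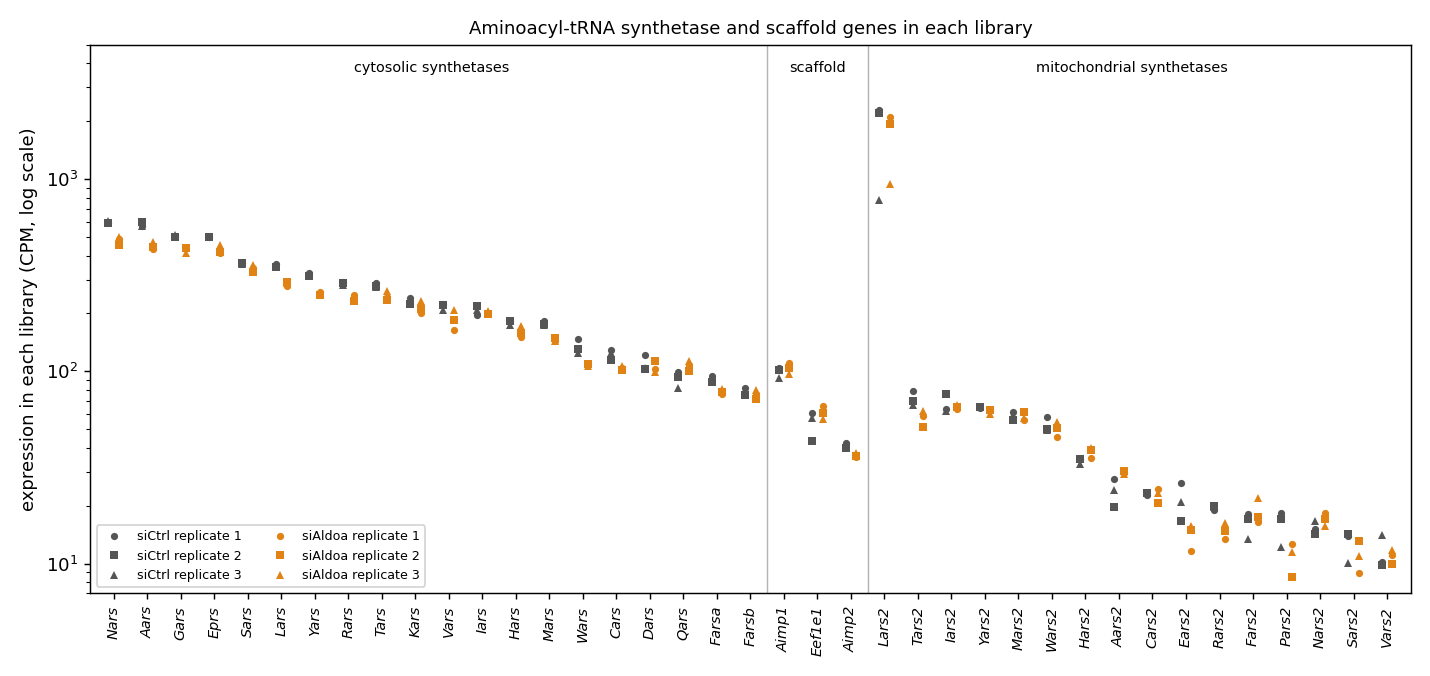
Expression of the 39 genes in each library, in CPM on a log scale, with siCtrl in grey, siAldoa in orange and marker shapes for the replicates. The siAldoa points of most cytosolic genes lie just under the siCtrl points, while Lars2 stands highest and is low in replicate 3 of both groups.

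The sum over the 20 cytosolic genes was 5496, 5407 and 5389 CPM in the siCtrl libraries and 4579, 4565 and 4786 CPM in the siAldoa libraries. The groups did not overlap, and the spread within a group was smaller than the gap between them. In 15 of the 20 genes all siAldoa libraries lay below all siCtrl libraries, and in 1 (Qars) all lay above. Over the table these shares were 17.1% and 16.7%. Among the 2971 genes with a siCtrl mean of 80 to 600 CPM, 1114 lay below and 649 above in this way. With 3 libraries against 3, an exact two-sided permutation test of one gene cannot go below p = 0.1, so the calls rest on the spread that limma estimates across genes.

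Aars, alanyl-tRNA synthetase, had the largest decrease of the cytosolic enzymes. It was at 567, 599 and 571 CPM in the siCtrl libraries and 434, 443 and 471 CPM in the siAldoa libraries, which is 77.7% of the control mean (log2 fold change -0.36, SE 0.039, adjusted p = 2.3e-07). Nars, asparaginyl-tRNA synthetase and the most highly expressed of the cytosolic genes, was at 592, 589 and 608 CPM in the siCtrl libraries and 485, 454 and 500.1 CPM in the siAldoa libraries (log2 fold change -0.31, SE 0.039, adjusted p = 1.8e-06). In both genes the siAldoa libraries lay well below the siCtrl libraries. Aars lies at chr8:111033144-111057664 on the plus strand (GRCm38, GENCODE), and its exons overlap 1326 bases of Exosc6 on the same strand, a gene that was not in the table.

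Lars, the leucyl enzyme of the multisynthetase complex, is also known as a leucine sensor upstream of mTORC1. It was at 364, 349 and 356 CPM in the siCtrl libraries and 277, 289.7 and 287 CPM in the siAldoa libraries (log2 fold change -0.32, SE 0.04, adjusted p = 2.3e-06). Yars, the tyrosyl enzyme, was at 324, 313 and 316 CPM in the siCtrl libraries and 259, 250.4 and 257 CPM in the siAldoa libraries (log2 fold change -0.31, SE 0.041, adjusted p = 4.1e-06). Wars, the tryptophanyl enzyme, which is also induced by interferon gamma, was at 147, 129.9 and 125 CPM in the siCtrl libraries and 109.6, 108 and 107 CPM in the siAldoa libraries (log2 fold change -0.30, SE 0.061, adjusted p = 0.00074). All 3 showed a clear gap between the groups, with Wars replicate 1 of siCtrl standing above the other control libraries.

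Mars, the methionyl enzyme, supplies both initiator and elongator tRNA. It was at 182, 176 and 174 CPM in the siCtrl libraries and 144, 149 and 144 CPM in the siAldoa libraries (log2 fold change -0.28, SE 0.049, adjusted p = 0.00015). Rars, which charges arginine, was at 292, 286 and 282 CPM in the siCtrl libraries and 250.2, 231 and 239 CPM in the siAldoa libraries (log2 fold change -0.26, SE 0.044, adjusted p = 0.00012). Gars, the glycyl enzyme of both cytosol and mitochondria, was at 503, 502 and 514 CPM in the siCtrl libraries and 437, 439.9 and 411 CPM in the siAldoa libraries (log2 fold change -0.24, SE 0.038, adjusted p = 5.3e-05). Eprs encodes a bifunctional protein that charges both glutamate and proline. It was at 499, 499 and 502 CPM in the siCtrl libraries and 414, 419.6 and 454 CPM in the siAldoa libraries (log2 fold change -0.22, SE 0.039, adjusted p = 0.00019), with replicate 3 the highest of the siAldoa libraries.

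These 9 genes (Aars, Eprs, Gars, Lars, Mars, Nars, Rars, Wars and Yars) passed when any 1 of the 6 libraries was left out, although Rars (adjusted p = 0.056) and Wars (0.071) did not without replicate 3 of both groups, and Eprs (0.065) and Wars (0.055) not without replicate 1. The other 5 cytosolic genes called lower did not, and their decreases were of a similar or smaller size. Vars, the valyl enzyme, was at 225, 220.5 and 209 CPM in the siCtrl libraries and 164, 185 and 207 CPM in the siAldoa libraries (log2 fold change -0.24, SE 0.062, adjusted p = 0.0067). Its siAldoa replicate 3 came close to the lowest control (207 against 209 CPM), and the call was lost without siCtrl replicate 1 (adjusted p = 0.077), siCtrl replicate 2 (0.067), siAldoa replicate 1 (0.1) or siAldoa replicate 2 (0.06). Cars, the cysteinyl enzyme, was at 129.8, 114 and 125 CPM in the siCtrl libraries and 103, 102 and 107 CPM in the siAldoa libraries (log2 fold change -0.23, SE 0.06, adjusted p = 0.0064), and lost its call without siCtrl replicate 1 (adjusted p = 0.059).

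Farsa encodes the alpha chain of phenylalanyl-tRNA synthetase, which works as a tetramer with the beta chain made by Farsb. Farsa was at 94.8, 87.8 and 91.8 CPM in the siCtrl libraries and 75.8, 78.0 and 80.7 CPM in the siAldoa libraries (log2 fold change -0.22, SE 0.063, adjusted p = 0.013), and its call was lost without siCtrl replicate 1 (adjusted p = 0.067) or siAldoa replicate 1 (0.062). Farsb was at 81.6, 75.5 and 78.0 CPM in the siCtrl libraries and 76.4, 71.9 and 80.1 CPM in the siAldoa libraries, with overlapping groups (log2 fold change -0.04, SE 0.067, adjusted p = 0.73; 95% confidence interval -0.18 to 0.10). Whether the chains differed in their response was not tested. Tars, the threonyl enzyme, was at 286, 279 and 273 CPM in the siCtrl libraries and 244, 234 and 262 CPM in the siAldoa libraries (log2 fold change -0.18, SE 0.046, adjusted p = 0.0068), and lost its call without siCtrl replicate 1 (adjusted p = 0.055) or siAldoa replicate 2 (0.071). Hars, the histidyl enzyme and a known autoantigen in myositis, was at 184, 184 and 175 CPM in the siCtrl libraries and 151, 158 and 172 CPM in the siAldoa libraries (log2 fold change -0.17, SE 0.053, adjusted p = 0.022), and lost its call without replicate 1 or 2 of either group (adjusted p = 0.098 to 0.14).

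Qars, the glutaminyl enzyme, moved the other way. It lies at chr9:108507706-108515941 on the plus strand. It was at 98.9, 93.6 and 82.0 CPM in the siCtrl libraries and 108, 100.5 and 113 CPM in the siAldoa libraries, 117% of the control mean (log2 fold change 0.23, SE 0.069, adjusted p = 0.021). The call did not survive leaving out siCtrl replicate 2 (adjusted p = 0.064), siCtrl replicate 3 (0.17), siAldoa replicate 1 (0.11) or siAldoa replicate 3 (0.15), and DESeq2 on the recovered reads did not make it (adjusted p = 0.081). Without replicate 3 of both groups, Qars (adjusted p = 0.35), Cars (0.15), Farsa (0.11) and Vars (0.056) did not pass, while Hars and Tars did.

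**Figure D2:**
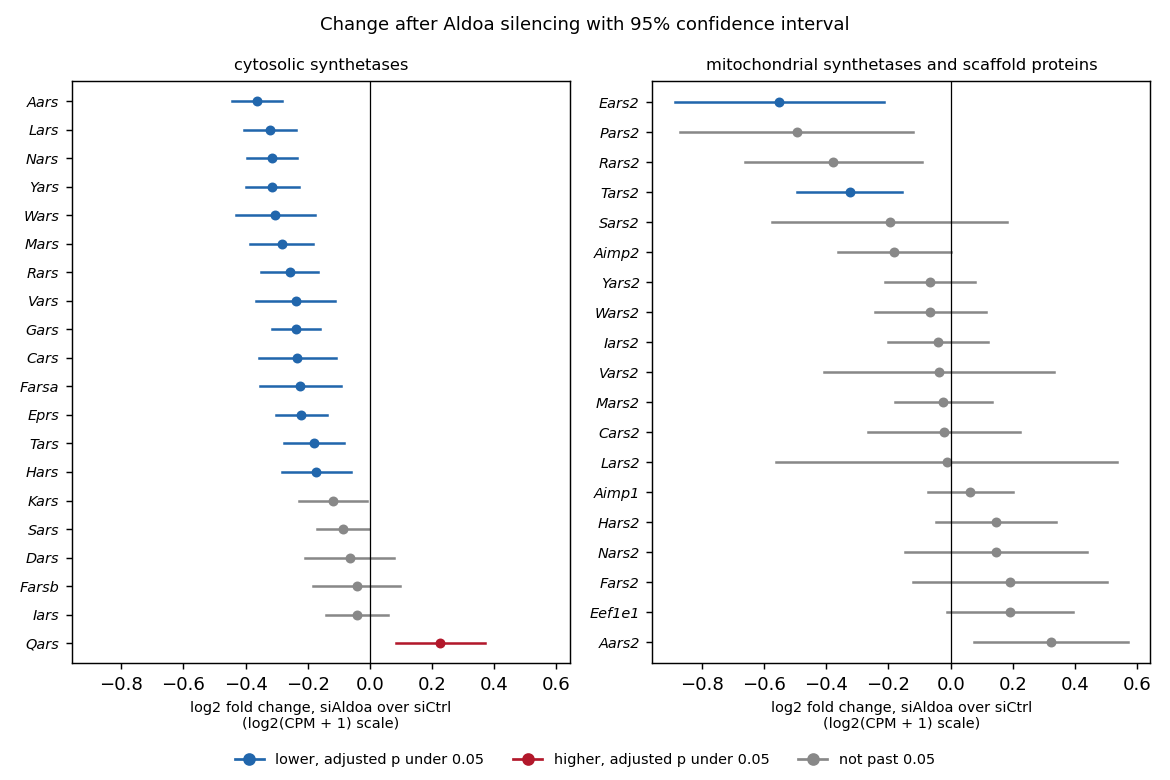
Log2 fold change of siAldoa over siCtrl with its 95% confidence interval (limma) for the 20 cytosolic genes on the left and the 16 mitochondrial and 3 scaffold genes on the right. Blue marks genes called lower, red genes called higher and grey the others; every mitochondrial interval is wider than every cytosolic one.

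Of the 5 cytosolic genes that did not pass, Sars and Kars had 95% intervals that lay below 0. Sars, the seryl enzyme, was at 365, 365 and 363 CPM in the siCtrl libraries and 342, 328 and 359 CPM in the siAldoa libraries, with every siAldoa library below every control, but the difference was small (log2 fold change -0.09, SE 0.041, adjusted p = 0.15). Kars, the lysyl enzyme that also serves mitochondria, averaged 233 ± 9.13 CPM (SD, n = 3) in the siCtrl and 215 ± 16.9 CPM (SD, n = 3) in the siAldoa group (log2 fold change -0.12, SE 0.053, adjusted p = 0.13), and was called lower when siAldoa replicate 3 was left out (adjusted p = 0.033). Dars, the aspartyl enzyme, was at 122, 103 and 104 CPM in the siCtrl libraries and 102, 113 and 98.7 CPM in the siAldoa libraries (log2 fold change -0.07, 95% interval -0.21 to 0.08). Iars, the isoleucyl enzyme, was at 197, 218 and 207 CPM in the siCtrl libraries and 201, 198 and 206 CPM in the siAldoa libraries (log2 fold change -0.04, 95% interval -0.14 to 0.06). The intervals of Iars, Dars, Farsb (lower bound -0.18) and Sars (-0.17) leave out a decrease as large as the median of the 20 genes (-0.2286). That of Kars leaves it out only just (-0.2277). The transcript of Iars shares 2251 aligned bases at 94.7% identity with the processed pseudogene Gm4849, so its reads may be divided between the 2.

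Within the multisynthetase complex, 4 of the 11 genes fell (Eprs, Lars, Mars and Rars), Qars rose and 6 did not pass. The share called lower, 36.4%, was near the 31.1% of all genes at 80 to 600 CPM, and without replicate 3 of both groups limma called 3 lower and 0 higher (0 higher at an unadjusted p under 0.05). Of its 8 synthetases 4 fell, with a median log2 fold change of -0.17. Of the 12 cytosolic synthetase genes outside the complex 10 fell, with a median of -0.24. The difference between these groups was not tested. The scaffold proteins gave no call: Aimp1 was at 104, 102 and 91.8 CPM in the siCtrl libraries and 111, 103 and 96.6 CPM in the siAldoa libraries (log2 fold change 0.06, SE 0.066, adjusted p = 0.57). Aimp2 was at 42.5, 39.9 and 42.1 CPM in the siCtrl libraries and 35.6, 36.1 and 37.7 CPM in the siAldoa libraries, without overlap (log2 fold change -0.18, SE 0.088, adjusted p = 0.17). Eef1e1 was at 60.5, 43.5 and 57.1 CPM in the siCtrl libraries and 65.8, 60.9 and 56.3 CPM in the siAldoa libraries, with siCtrl replicate 2 apart from the other controls (log2 fold change 0.19, SE 0.098, adjusted p = 0.19). None of the 3 reached an unadjusted p under 0.05 by limma, edgeR or DESeq2. Their sum was 207, 185 and 191 CPM in the siCtrl libraries and 212, 200.4 and 191 CPM in the siAldoa libraries, so the groups overlapped. Aimp2 shares 487 exonic bases with Eif2ak1 on the opposite strand.

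Synthetases fall into a class I and a class II by the fold of their catalytic domain. Counted over cytosolic and mitochondrial genes together, 9 of 19 class I genes fell and 1 rose, and 7 of 17 class II genes fell (47.4% and 41.2%, against 10.0% of all genes and 31.1% of those at 80 to 600 CPM). The medians were -0.22 and -0.17. Without replicate 3 of both groups the counts of genes called lower were 4 and 5, in the opposite order, and the difference between the classes was not tested.

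The mitochondrial synthetases gave few calls. Of the 16 genes 2 fell (Ears2 and Tars2), none rose and 14 did not pass by limma, and the median log2 fold change was -0.04. The share called lower, 12.5%, was close to the background of 10.0% over all genes and of 10.1% over the 6903 genes with a siCtrl mean of 10 to 80 CPM. At an unadjusted p under 0.05, 4 were lower and 1 higher (Aars2), and no gene was called higher by edgeR or DESeq2 either. With low genes left out before the adjustment, Pars2 (adjusted p = 0.029) and Rars2 (0.04) were also called lower and Aars2 (0.041) higher, so that 4 of the 16 were lower. Except for Lars2 these genes were read at 11.3 to 71.8 CPM, or 32 to 287 reads per library. The standard errors of these 15 genes were 0.07 to 0.18 on the log2 scale, each above the largest of the cytosolic genes (0.069). A decrease of the cytosolic size may therefore go uncalled at this depth. Some 95% intervals left out a decrease as large as the cytosolic median of -0.23, such as those of Mars2 (lower bound -0.18), Iars2 (-0.20) and Yars2 (-0.21). Others reached it, such as that of Wars2 (-0.24).

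Ears2, which charges glutamate onto mitochondrial tRNA, was at 26.3, 16.7 and 20.9 CPM in the siCtrl libraries and 11.6, 15.0 and 15.7 CPM in the siAldoa libraries, 66.2% of the control mean (log2 fold change -0.55, SE 0.16, adjusted p = 0.017). Its replicates were spread widely in both groups, and the call was lost without siCtrl replicate 1 (adjusted p = 0.16), siCtrl replicate 3 (0.084), siAldoa replicate 1 (0.14) or siAldoa replicate 2 (0.056). Tars2, the threonyl enzyme, was at 78.6, 69.8 and 66.9 CPM in the siCtrl libraries and 58.3, 51.0 and 62.1 CPM in the siAldoa libraries (log2 fold change -0.33, SE 0.082, adjusted p = 0.0056), and lost its call without siCtrl replicate 1 or siAldoa replicate 2 (adjusted p = 0.07 in both). Without replicate 3 of both groups none of the 16 was called by limma (4 lower and 0 higher at an unadjusted p under 0.05). Pars2 and Rars2 had differences of a similar size that did not pass. Pars2, the prolyl enzyme, was at 18.4, 17.0 and 12.2 CPM in the siCtrl libraries and 12.7, 8.55 and 11.5 CPM in the siAldoa libraries (log2 fold change -0.49, SE 0.18, adjusted p = 0.056), and edgeR on the recovered reads called it lower (adjusted p = 0.035). Rars2, the arginyl enzyme, was at 18.9, 19.97 and 19.6 CPM in the siCtrl libraries and 13.5, 14.7 and 16.2 CPM in the siAldoa libraries, without overlap (log2 fold change -0.38, SE 0.14, adjusted p = 0.055), and passed with a pseudocount of 0.1 (adjusted p = 0.046) and with quantile normalization (0.042).

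In the other direction, Aars2, the mitochondrial alanyl enzyme, was at 27.4, 19.7 and 24.1 CPM in the siCtrl libraries and 29.4, 30.5 and 29.1 CPM in the siAldoa libraries (log2 fold change 0.32, SE 0.12, adjusted p = 0.061). Every siAldoa library lay above every control. Hars2, the histidyl enzyme, was at 34.8, 35.0 and 33.1 CPM in the siCtrl libraries and 35.4, 38.8 and 40.1 CPM in the siAldoa libraries (log2 fold change 0.14, SE 0.093, adjusted p = 0.32), and it overlaps Hars head to head over 195 bases on the opposite strand. For the remaining mitochondrial genes the 95% interval included 0. Nars2 (asparaginyl) had a log2 fold change of 0.15 (95% interval -0.15 to 0.44), Fars2 (phenylalanyl) of 0.19 (-0.12 to 0.50) and Sars2 (seryl) of -0.20 (-0.58 to 0.18). For Yars2, Wars2, Iars2, Vars2, Mars2 and Cars2 the values ran from -0.07 to -0.02. The sum over the 15 mitochondrial genes other than Lars2 was 531, 504 and 491 CPM in the siCtrl libraries and 467, 477 and 496 CPM in the siAldoa libraries, with overlap.

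Lars2, the mitochondrial leucyl enzyme, stood apart from all others. Its gene lies at chr9:123366927-123462666 on the plus strand. It was at 2282, 2200.0 and 781 CPM in the siCtrl libraries and 2096, 1935 and 943 CPM in the siAldoa libraries (log2 fold change -0.01, SE 0.26, adjusted p = 0.99), the highest level of the 39 genes, and replicate 3 was low in both groups. Per kilobase of its principal transcript the siCtrl mean was 451 CPM, against 217 for Nars and 2.56 to 41.3 for the other mitochondrial genes. Its 95% interval was the widest of the 39 genes, -0.56 to 0.54. Without replicate 3 of both groups its log2 fold change was -0.15 (adjusted p = 0.13). Bases 3278 to 3349 of its 3894-base principal transcript match the annotated gene Gm15564 at 98.6% identity, and bases 3163 to 3349 match AA474408 over 196 aligned bases at 80.1%. Neither gene was in the table. The long non-coding RNA Gm26917, chosen after its values were seen, was likewise lower in replicate 3, at 1671, 1643 and 1140.0 CPM in the siCtrl libraries and 1443, 1249 and 1048 CPM in the siAldoa libraries. Whether the level of Lars2 comes from its own messenger RNA was not tested.

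The enzymes that charge the same amino acid in the 2 compartments gave 17 pairs, with Eprs and Fars2 each in 2 pairs. In 12 pairs only the cytosolic gene was called lower, in 2 both were (Eprs with Ears2, Tars with Tars2), in none only the mitochondrial gene and in 3 neither. Since a call in one gene and none in its partner does not show that they differed, the log2 ratio of cytosolic to mitochondrial CPM was compared within each library. All siAldoa ratios lay below all siCtrl ratios in 7 pairs, above them in 1 and overlapped in 9. Single genes separated likewise in 17.1% (lower) and 16.7% (higher) of the table, and the share over other pairs of genes was not computed. The exact two-sided permutation test gave p = 0.1, the smallest that 3 against 3 libraries allow, in those 8 pairs and 0.2 to 1.0 in the others, so no pair could pass a threshold of 0.05.

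The alanine pair had the largest change in ratio. The log2 ratio of Aars to Aars2 was 4.32, 4.86 and 4.51 in the siCtrl libraries and 3.84, 3.82 and 3.97 in the siAldoa libraries, a change of -0.69. For asparagine (Nars to Nars2) it was 5.21, 5.28 and 5.11 in the siCtrl libraries and 4.65, 4.65 and 4.91 in the siAldoa libraries, a change of -0.46. For the alpha chain of the phenylalanine enzyme (Farsa to Fars2) it was 2.33, 2.31 and 2.68 and 2.14, 2.10 and 1.83, a change of -0.41. The other pairs in which the ratio fell without overlap were those for histidine (-0.32), methionine (-0.26), tyrosine (-0.25) and tryptophan (-0.24). The threonine pair was the 1 in which the ratio rose without overlap, from 1.85, 1.99 and 2.01 to 2.05, 2.18 and 2.06 (0.15), Tars2 having the more negative log2 fold change. The isoleucine ratio was 1.61, 1.51 and 1.71 in the siCtrl libraries and 1.65, 1.58 and 1.61 in the siAldoa libraries, with overlap (change -0.0001).

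**Figure D3:**
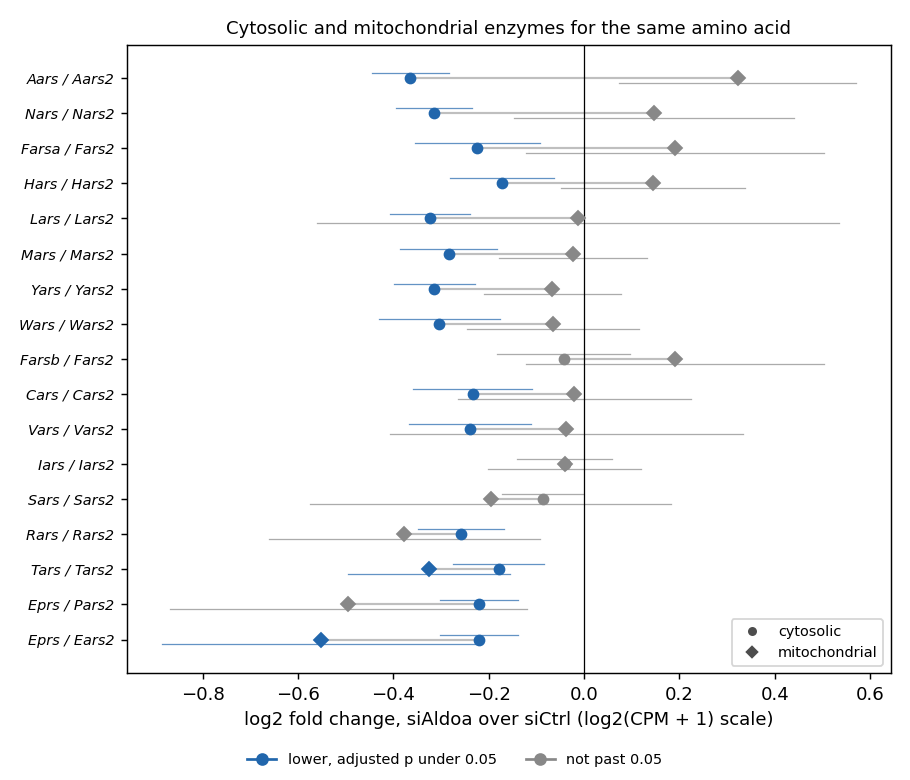
Log2 fold changes of the cytosolic (circles) and mitochondrial (diamonds) enzymes for the same amino acid, each with its 95% confidence interval (limma), ordered by the change of their ratio. Aars and Aars2 lie farthest apart with the cytosolic gene lower, and in the lowest rows the mitochondrial gene is the lower of the 2.

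The cytosolic genes were also divided by whether they are usually listed among ATF4 targets, a list made from general knowledge with earlier results of these data known. Of the 13 listed genes 11 fell and none rose, by limma, edgeR and DESeq2 alike, and Iars and Sars did not pass. At an unadjusted p under 0.05, none was higher by these tools. With replicate 3 of both groups left out, 8 of the 13 were called lower. The share of the 13 called lower by limma was 84.6%, against 10.0% of all genes and 31.1% of those at 80 to 600 CPM. The median log2 fold change of the 13 was -0.24. Of the other 7 genes 3 fell (Farsa, Hars and Rars), a share of 42.9%, and Qars rose, with a median of -0.12. For these 7, both DESeq2 and limma without replicate 3 of both groups called 1 lower and 0 higher (1 and 0 higher at an unadjusted p under 0.05, respectively). The listed genes had higher siCtrl levels (median 318 CPM, against 109.7 CPM), and the difference between the lists was not tested.

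Because ATF4 acts through a C/EBP-ATF response element (CARE), the 250 bases before each start site were searched for the letters TGATGNAA on both strands, in the promoter sequences of RefSeq for GRCm38.p6. Such a window was at hand for 30 of the 39 genes. The letters stood in 3 of the 30 (10.0%), against 241 of 11496 genes with a window (2.1%). All were cytosolic genes called lower and listed as ATF4 targets (Aars, Gars and Tars, 3 of 13 cytosolic windows). Of those 13 windows 8 were of listed genes, and the listed genes Cars, Lars, Nars, Vars and Wars, also called lower, had no window. None of the 14 mitochondrial windows held the letters. The E-box CACGTG, the core bound by MYC and its relatives, which reads alike on both strands, stood in 3 of the 30 windows (10.0%), against 911 of 11496 (7.92%). It was found at Aars, which fell, and at Farsb and Iars, which did not pass. Like the CARE letters, it thus stood in 3 of 13 cytosolic windows and in none of the 14 mitochondrial windows. No E-box overlapped a CARE match. In the Aars window an annotated exon of the gene began after the first 48 bases. Both Aars matches lay past that point, 146 (E-box) and 112 (CARE) bases before the start site. Other windows also lay largely past such an exon start. The bases before it were 19 for Fars2, 73 for Ears2, 109 for Tars2, 107 for Yars, 5 for Aimp1 and 0 for Qars. A window without a match may thus miss bases further upstream. A match is a run of letters and not a measured binding site.

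Matches of 4 genes are shown in 30 bases of context, 5′ to 3′ on the strand that reads the motif, with the motif in capitals, so that the letters found can be read. The CARE matches of Gars and Tars lie at chr6:55037960-55037989 (minus strand) and chr15:11399655-11399684 (plus strand), beginning 30 and 15 bases before the start site.
Gars CARE: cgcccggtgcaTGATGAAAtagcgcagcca
Tars CARE: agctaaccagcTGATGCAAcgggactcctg
The E-box matches of Farsb and Iars lie at chr1:78488919-78488948 (minus strand) and chr13:49682049-49682078 (plus strand), 39 and 69 bases before the start site.
Farsb E-box: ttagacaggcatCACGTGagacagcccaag
Iars E-box: gaccaatcgccaCACGTGttgtttgtaggt

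The promoters of Gars and Tars are given up to the nearest annotated exon, so that the place of the element near the start can be read. Both lie outside annotated exons and are written on the strand of the gene, on which the CARE reads as its reverse complement (capitals). The Gars window is chr6:55037751-55038000 (plus strand) and the Tars window chr15:11399666-11399908 (minus strand), upstream of genes with log2 fold changes of -0.24 and -0.18.
Gars promoter: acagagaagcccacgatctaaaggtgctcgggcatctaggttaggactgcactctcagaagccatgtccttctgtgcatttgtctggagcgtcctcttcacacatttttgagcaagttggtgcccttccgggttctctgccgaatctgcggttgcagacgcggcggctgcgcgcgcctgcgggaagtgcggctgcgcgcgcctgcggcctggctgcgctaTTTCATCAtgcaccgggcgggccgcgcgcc
Tars promoter: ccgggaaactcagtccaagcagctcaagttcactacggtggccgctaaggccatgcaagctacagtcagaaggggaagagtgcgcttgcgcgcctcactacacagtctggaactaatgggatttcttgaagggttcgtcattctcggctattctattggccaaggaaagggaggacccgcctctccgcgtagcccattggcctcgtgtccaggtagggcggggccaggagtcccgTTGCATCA

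ATF4 and the genes of its amino acid response were read beside the synthetases. Of the 22 genes of that list 19 were in the table, 11 fell (57.9%, against 31.1% of all genes at 80 to 600 CPM) and 3 rose, with a median log2 fold change of -0.24. Leaving out replicate 3 of both groups gave 7 lower and 2 higher. Atf4 itself was at 570.5, 567 and 576 CPM in the siCtrl libraries and 477, 485 and 489 CPM in the siAldoa libraries (log2 fold change -0.24, SE 0.035, adjusted p = 1.5e-05), again without overlap. The largest decreases were in genes of serine, glycine and proline synthesis. Pycr1, which makes proline, was at 49.6, 51.7 and 43.6 CPM in the siCtrl libraries and 38.6, 31.0 and 28.8 CPM in the siAldoa libraries (log2 fold change -0.55, SE 0.10, adjusted p = 0.0004). Shmt2, the mitochondrial enzyme that converts serine to glycine, was at 401, 374 and 382 CPM in the siCtrl libraries and 265, 267 and 274 CPM in the siAldoa libraries (log2 fold change -0.52, SE 0.041, adjusted p = 2.1e-09).

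In the serine pathway, Psat1 was at 1192, 1233 and 1166 CPM in the siCtrl libraries and 865, 915 and 901 CPM in the siAldoa libraries (log2 fold change -0.42, SE 0.033, adjusted p = 1.5e-09), and Psph, its last enzyme, was at 106, 110.2 and 124 CPM in the siCtrl libraries and 89.9, 82.3 and 83.8 CPM in the siAldoa libraries (log2 fold change -0.40, SE 0.067, adjusted p = 8.4e-05). Ddit3, which encodes the stress factor CHOP, was at 66.3, 63.5 and 65.1 CPM in the siCtrl libraries and 50.2, 46.2 and 50.5 CPM in the siAldoa libraries (log2 fold change -0.40, SE 0.075, adjusted p = 0.00035). It shares 68 exonic bases with Mars on the opposite strand. The 3 genes that rose were also ones known to follow ATF4 or stress. Chac1, which degrades glutathione, was at 46.8, 50.9 and 56.1 CPM in the siCtrl libraries and 78.3, 70.3 and 73.3 CPM in the siAldoa libraries (log2 fold change 0.52, SE 0.079, adjusted p = 2.6e-05). Ddit4, an inhibitor of mTORC1, had a log2 fold change of 0.42 (adjusted p = 0.00078), and Atf5, a transcription factor, of 0.30 (adjusted p = 3.3e-05). In the same promoter search CARE letters stood in 5 of 19 windows of this list (Asns, Chac1, Slc7a11, Nupr1 and Pycr1), among them genes that fell, rose and did not pass.

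**Figure D4:**
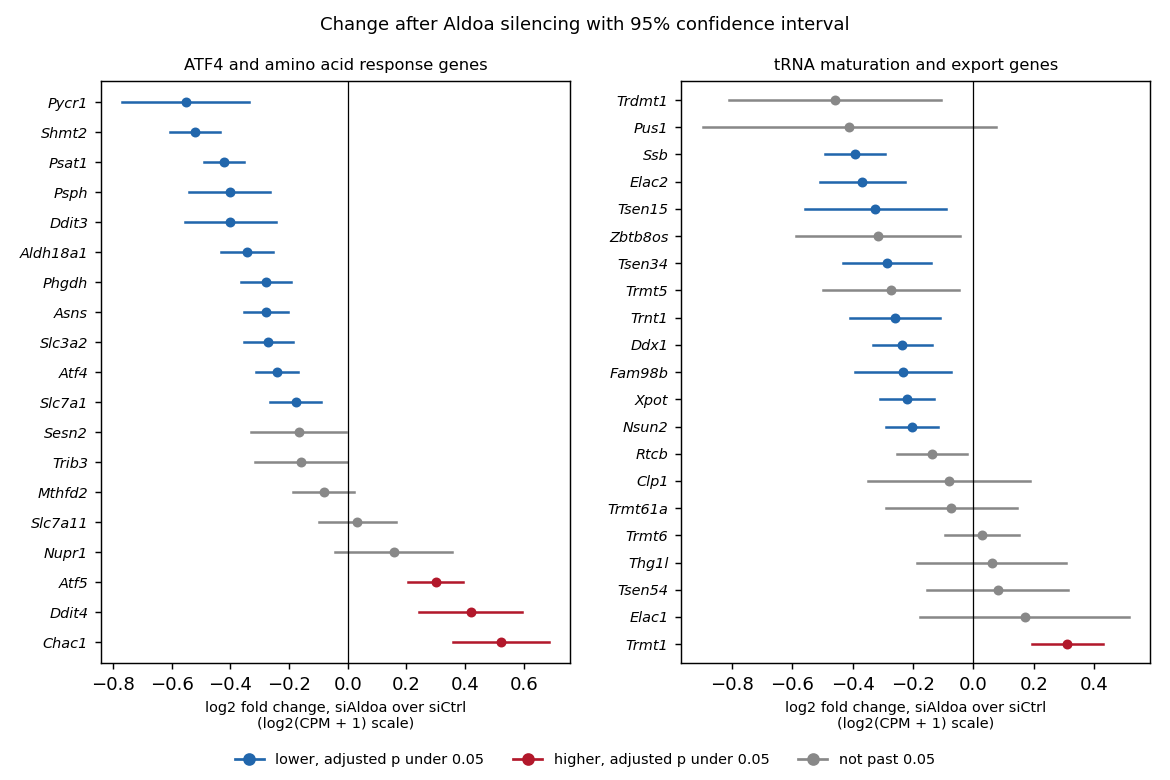
Log2 fold changes with 95% confidence intervals (limma) of ATF4 and its amino acid response genes on the left and of tRNA maturation and export genes on the right. Blue marks genes called lower, red genes called higher and grey the others; 11 of 19 genes on the left and 10 of 22 on the right were called lower, and 1 of the genes called lower on the right is not drawn.

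Genes that make and export tRNA gave more decreases than increases. Of 22 genes 10 fell and 1 rose, with a median log2 fold change of -0.23 (percent called lower 45.5, against 10.0% of all genes). The share was 10.1% among all genes at 10 to 80 CPM and 31.1% among those at 80 to 600 CPM, and the list held genes of both levels. By edgeR 11 were called lower and by DESeq2 6. When replicate 3 of both groups was left out, 3 were called lower and 1 higher. Ssb, the La protein that binds new RNA polymerase III transcripts, was at 213, 200.2 and 212 CPM in the siCtrl libraries and 159, 157 and 159.7 CPM in the siAldoa libraries (log2 fold change -0.39, SE 0.048, adjusted p = 1.6e-06). Elac2, which trims the 3′ end of tRNA precursors, was at 77.0, 82.3 and 76.7 CPM in the siCtrl libraries and 60.2, 61.5 and 60.5 CPM in the siAldoa libraries (log2 fold change -0.37, SE 0.068, adjusted p = 0.0003). The splicing endonuclease for tRNA introns was represented by Tsen15 and Tsen34, which fell, with log2 fold changes of -0.32 (adjusted p = 0.044) and -0.29 (adjusted p = 0.0043), and Tsen54 did not pass, at 0.08 (adjusted p = 0.69). Tsen15 lost its call without any 1 of the 6 libraries. Trmt1, which methylates a guanosine of tRNA, rose, from 103, 102 and 105 CPM to 123, 127 and 136 CPM (log2 fold change 0.31, SE 0.057, adjusted p = 0.00028).

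The partners of charging and proofreading gave 1 call. Of 11 genes 8 were in the table, and the 1 that fell was Dtd2, which acts in proofreading. It was at 16.4, 13.1 and 17.7 CPM in the siCtrl libraries and 10.2, 10.4 and 10.2 CPM in the siAldoa libraries (log2 fold change -0.56, SE 0.16, adjusted p = 0.016), and its call was lost without replicate 1 or 3 of either group (adjusted p = 0.052 to 0.093). The median of the 8 genes was -0.02. Gatc and Qrsl1, subunits of the amidotransferase that makes mitochondrial glutaminyl-tRNA, had log2 fold changes of 0.22 (adjusted p = 0.12) and 0.16 (adjusted p = 0.44).

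Exons of 12 of the 39 genes overlap those of another gene in the table. Beside the pairs already given, Iars2 shares 2034 bases with Rab3gap2, Farsb 248 with Sgpp2 and Ears2 89 with Ubfd1, all on the opposite strand. The library kit kept strand, but whether counting used it is not stated in the sources used here, so reads of such partners may not have been told apart.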

How the data were processed

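Poly(A) RNA of NIH/3T3 cells was sequenced in 3 siCtrl and 3 siAldoa libraries, grouped by their labels, with a directional kit. Per the methods, ERCC RNA was added to the lysis buffer for replicate 1 and after RNA extraction for replicates 2 and 3, and no ERCC rows were found in the table. The authors aligned the reads with Bowtie2 (version 2.2.7) to mm10, drew equal numbers of reads per sample, counted them per gene, dropped genes with fewer than 12 reads (1834 such genes were still in the table) and deposited CPM, scaled to library sizes adjusted between samples. The annotation release, the use of strand and the handling of reads with several matches are not given in the sources used here. A further deposited table holds the authors' own comparison and was not used.

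Reads per gene were recovered by dividing each CPM by what 1 read is worth in its library, and 100% of values came out whole within 0.001. The siAldoa group was tested against siCtrl in R (version 4.3.3) by limma (version 3.58.1), fitted to log2(CPM + 1) with its trend option, which lets the spread depend on the level. The test was two-sided, without a filter, with Benjamini-Hochberg adjustment over 18001 genes. Fold changes on this scale understate those of low genes. Intervals are 95% confidence intervals from the same fit. A call is an adjusted p under 0.05. The test was checked on simulated data with larger changes than those of the called members and no effect of the replicate number. The check therefore does not cover small changes or libraries like replicate 3. Alternatives were a pseudocount of 0.1, a filter on low genes (mean CPM at or under 1.79, leaving 13500), quantile normalization, CPM of total reads, no trend, edgeR (version 4.0.16) and DESeq2 (version 1.42.0) on the recovered reads, a replicate block and leaving out libraries. Subsampling equalized depth, reads carry no molecular identifiers, and precision from reads covers counting error only. P-values measure the spread between these 3 libraries a group, which limma estimates in part from other genes of like level.

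The members and lists were chosen with earlier results of these data known. Every member with a call is named with its values in each library. Of the others, those with the 3 largest and 3 smallest adjusted p per group, the members of the complex and the partners of called genes are named, and of the other lists the called genes with the 5 largest changes in each direction and Atf4. Further members (Iars2, Mars2, Vars2 and the like), Tsen54, Gatc, Qrsl1, Gm26917 and the overlapping partners were named after their values were seen. Some items that the rule would name are not reported here. Gene positions and overlaps came from GENCODE on GRCm38, on which 17932 gene IDs matched, transcripts were compared with blastn (version 2.17.0, at least 90% identity over 200 bases, and for Lars2 every match found), and promoters came from RefSeq for GRCm38.p6.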

Additional observations from a re-analysis of the deposited data

How the results depend on the processing

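Of the 17 calls among the 39 genes, 17 were kept with edgeR, a pseudocount of 0.1 or the filter on low genes, 16 with CPM of total reads, and 14 each with quantile normalization, DESeq2 and the replicate block. Without the mean-variance trend 3 genes were called lower (in place of 16), 0 higher (in place of 1, with 1 at an unadjusted p under 0.05) and 1440 genes in all (in place of 3676). DESeq2 called 2183 genes and 0 members higher (1 unadjusted). The filter and CPM of total reads each called 2 members higher (Qars and Aars2). With the replicate block limma called 0 members higher (2 unadjusted), since Qars was lost (adjusted p = 0.056), as were Hars (0.056) and Ears2 (0.055). The main fit did not take the numbers as pairs. The deviations of same-numbered libraries correlated at 0.03, 0.014 and 0.134 over 10059 genes, and those of differently numbered libraries at -0.094 to 0.074. The value for replicate 3 (0.134) was thus the highest, and whether libraries of the same number share a batch was not tested. Leaving out a library or a replicate number of both groups gave 1014 to 2813 genes, 7 to 17 members lower and 0 to 2 higher; without replicate 1 these were 1432, 7 and 0 (2 unadjusted), without replicate 3 (chosen after seeing the data) 1014, 9 and 0 (0 unadjusted), and without siCtrl replicate 1 alone 9 were lower. The median of the cytosolic synthetases was -0.17 with quantile normalization and -0.18 to -0.25 with libraries left out, against -0.23, and that of the mitochondrial ones -0.08 to -0.03. Uncalled genes near 0 changed sign: Lars2 was 0.055 with quantile normalization and 0.011 with CPM of total reads, and Cars2 0.0022 with the latter. With libraries left out, Lars2 ran from -0.52 to 0.35, Dars from -0.12 to 0.029, Cars2 from -0.084 to 0.049, Iars2 from -0.11 to 0.046, Mars2 from -0.066 to 0.035, Vars2 from -0.12 to 0.11, Wars2 from -0.16 to 0.071, Fars2 from -0.048 to 0.35 and Sars2 from -0.35 to 0.0035. The settings with 2 libraries a group test fewer samples, and the cause of the other changes was not tested. Depth limits the mitochondrial genes, which, Lars2 aside, rest on 32 to 287 reads a library.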
